A study of Mus musculus with 3 samples.

Results

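The EGF receptor system genes described here are 8 genes picked by symbol from the expression table of the series: the ligand genes Areg, Hbegf, Ereg, Tgfa, Btc and Epgn, the receptor gene Egfr, and Errfi1, whose product inhibits the receptor. They are 8 of 23298 gene symbols, and each has 1 row in the table. Areg and Hbegf were part of the choice because they had been seen higher at both washout times, so their differences from the control are a description and not a finding. The libraries hold polyadenylated RNA of C2C12, a mouse myoblast line, in a derivative that the series title calls C2C12-hN1∆ECD; all 3 libraries come from it. The name denotes a human NOTCH1 without its extracellular domain, a receptor form that needs no ligand but still has to be cut by gamma-secretase, the protease blocked by DAPT. The control library is titled as having no treatment, and the other libraries come from cells taken 1 h and 6 h after 10 uM DAPT was washed out. Cells of all 3 libraries were in DMEM with 20% FBS. The labels leave unsaid whether the control was itself in DAPT when it was collected. The sample titles name no matching change of medium for it, so removal of DAPT and handling at washout cannot be told apart. Each group is 1 library, so no test between conditions was possible, and nothing in the labels tells whether the line is 1 clone.

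Ligands of the EGF receptor are made as membrane-anchored precursors, which metalloproteases of the ADAM family release from the cell surface. A bound ligand makes the receptor pair with itself or with its relative ERBB2, and the paired kinases start signalling through RAS and ERK. ERK signalling in turn raises transcription of several of the ligand genes and of inhibitors such as Errfi1, so the system holds both positive and negative feedback. In muscle, HB-EGF and other ligands of this family are known as growth and survival signals for myoblasts.

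Promoters are shown first for the 4 members that were 2-fold apart from the control in at least 1 washout library and had a usable RefSeq entry, Areg, Errfi1, Egfr and Btc. They were picked by their values, so no link between sequence and time pattern is drawn from them. Each is the 250 bases before the annotated start (RefSeq, GRCm38.p6), written 5′ to 3′ on the gene's strand; capitals mark matches on either strand to the motifs searched. Areg lies at chr5:91139349-91139598 on the plus strand, Errfi1 (the downstream of 2 listed starts) at chr4:150854820-150855069 on the plus strand, Egfr at chr11:16751953-16752202 on the plus strand and Btc at chr5:91402995-91403244 on the minus strand.
Areg: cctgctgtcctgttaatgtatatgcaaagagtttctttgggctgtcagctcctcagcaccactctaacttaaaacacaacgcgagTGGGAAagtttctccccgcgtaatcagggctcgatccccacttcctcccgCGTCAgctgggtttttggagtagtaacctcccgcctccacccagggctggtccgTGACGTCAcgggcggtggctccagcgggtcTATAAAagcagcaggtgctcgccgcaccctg
Errfi1: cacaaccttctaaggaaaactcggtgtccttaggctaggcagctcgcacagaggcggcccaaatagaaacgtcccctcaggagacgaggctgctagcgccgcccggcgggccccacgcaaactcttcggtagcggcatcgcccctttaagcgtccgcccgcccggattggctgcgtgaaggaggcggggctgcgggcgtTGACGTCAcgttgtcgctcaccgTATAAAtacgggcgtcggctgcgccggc
Egfr: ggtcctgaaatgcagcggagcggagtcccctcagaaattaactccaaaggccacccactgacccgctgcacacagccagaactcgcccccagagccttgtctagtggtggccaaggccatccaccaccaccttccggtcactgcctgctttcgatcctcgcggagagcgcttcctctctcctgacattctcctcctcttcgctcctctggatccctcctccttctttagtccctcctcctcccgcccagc
Btc: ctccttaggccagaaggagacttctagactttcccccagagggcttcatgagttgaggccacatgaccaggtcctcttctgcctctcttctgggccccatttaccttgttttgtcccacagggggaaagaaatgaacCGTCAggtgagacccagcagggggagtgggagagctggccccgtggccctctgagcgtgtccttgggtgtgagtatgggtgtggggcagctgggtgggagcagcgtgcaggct

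The motifs were the cAMP response element TGACGTCA and its core TGACG, which every full site contains on both strands, the AP-1 site TGANTCA, the RBPJ core TGGGAA of Notch target genes, the EGR site GCGNGGGCG, the TATA box TATAAA and the CArG box bound by SRF. Areg had a full TGACGTCA, 61 to 54 bases before its start, and a TATAAA 31 to 26 bases before it. Errfi1 had the same pair, with TGACGTCA at 51 to 44 bases and TATAAA at 28 to 23 bases before its start. Of 32851 promoter windows of this length, 1.55% held TGACGTCA, 12.4% held TATAAA and 0.119% held both. No other pair of motifs was counted, and this is the pair seen in Areg and Errfi1. Its share therefore does not measure how unusual their likeness is. Areg also had 1 TGGGAA, at 165 to 160 bases before the start, a motif found in 21.6% of all windows. In Btc the only match was a TGACG, which 17.8% of windows had, and in Egfr no motif matched. AP-1, EGR and CArG matches, present in 6.75%, 4.70% and 1.47% of all windows, were found in none of the windows of Areg, Errfi1, Egfr, Btc, Epgn and Tgfa. The upstream start of Errfi1, whose window is not shown, had no match, and which start these cells use was not examined. A further TGACG on the minus strand of Areg lay 115 to 111 bases before the start. Epgn, which was almost silent, also held a TGACG, at 101 to 97 bases, and a TATAAA, at 86 to 81 bases before its start. A match describes letters in this window and is not evidence of binding, and the windows of Ereg, Hbegf, Epgn and Tgfa are not shown.

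Over the 3 libraries, 6 of the 8 genes had a mean of at least 1 FPKM (fragments scaled by transcript length and library size, so that levels of genes can be compared per length), the level from which a gene was counted as expressed. Tgfa and Epgn were below it. Errfi1 and Hbegf were the highest in the control, at 26.5 and 26.0 FPKM, and their ratio of 1.02 had an interval of 0.934 to 1.11. Such intervals combine how wide the deposited 95% bounds were in both values, so they reflect counting and the sharing of reads among models but no variation between cultures. Ereg followed at 21.8 FPKM, Areg at 14.7, Egfr at 5.88 and Btc at 1.78, each below its neighbour by more than these widths. At 1 h the order was Errfi1, Hbegf, Ereg, Areg, Egfr and Btc, with no overlap of bounds between neighbours. At 6 h Errfi1 came after Hbegf, Ereg and Areg, and its bounds overlapped those of Areg (ratio of Areg to Errfi1 1.23, 1.11 to 1.37). By the depth estimated from the spacing of low values, 23600000 fragments in the control, the values of Tgfa and Epgn correspond to 3.11 and 2.16 fragments on their longest coding transcript, so their order could not be told.

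**Figure D1:**
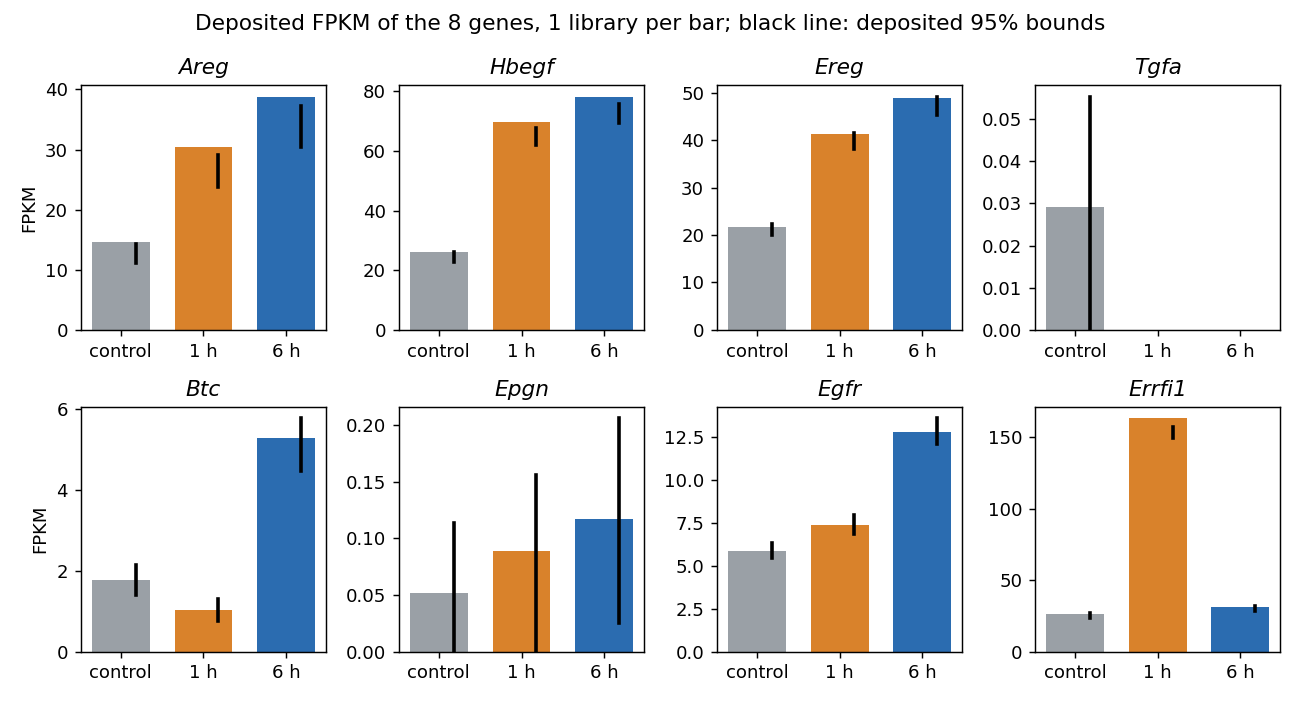
Deposited FPKM (vertical axes, each from 0) of the 8 genes in the control, 1 h and 6 h libraries, 1 library per bar, with the deposited 95% bounds as a black line. Areg, Hbegf and Ereg were high in both washout libraries, Errfi1 in the 1 h library (163 FPKM), and Btc and Egfr were highest at 6 h; the bars of Areg in all libraries, Hbegf at 1 h and 6 h and Errfi1 at 1 h stand above their own bounds.

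Among the ligands, Areg, Hbegf and Ereg formed the group that was higher at 1 h and higher still at 6 h. Areg encodes amphiregulin, a ligand of EGFR alone. The control held 14.7 FPKM, the 1 h library 30.5 and the 6 h library 38.8. Both washout libraries were thus above the control, and the 6 h library was the highest. The 1 h value was 2.07-fold the control (1.80 to 2.38), the 6 h value 2.64-fold (2.30 to 3.03), and 6 h was 1.27-fold 1 h (1.12 to 1.44). The deposited FPKM of Areg lay above its own upper bound in all 3 libraries (14.3, 29.1 and 37.2 FPKM), so the level of this gene is less sure than its ratios. The same was true of Hbegf at 1 h and 6 h (upper bounds 67.6 and 75.6 FPKM) and of Errfi1 at 1 h (157 FPKM).

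Hbegf encodes heparin-binding EGF-like growth factor, which binds EGFR and ERBB4. Its level was 26.0 FPKM in the control, then 69.8 at 1 h and 78.2 at 6 h, the highest of the ligands in every library. At 1 h it was 2.69-fold the control (2.49 to 2.90) and at 6 h 3.01-fold (2.79 to 3.25). Most of the difference was present at 1 h, since the 6 h library was only 1.12-fold the 1 h library (1.06 to 1.18).

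Ereg encodes epiregulin, a broad ligand of the receptor family with low affinity. The control had 21.8 FPKM of it, the 1 h library 41.3 and the 6 h library 49.0. The order of the libraries was the same as for Areg and Hbegf. At 1 h Ereg was 1.89-fold the control (1.77 to 2.03), just under the 2-fold limit, and at 6 h 2.25-fold (2.11 to 2.40). On the log2(FPKM + 1) scale, on which the limit was set, Areg was just inside at 1 h with a difference of 1.00 and Ereg just outside with 0.89. With a pseudocount of 5 the difference of Areg was 0.85, below the limit.

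Btc, the betacellulin gene, behaved differently from these ligands. Control cells had 1.78 FPKM, with 1.04 after 1 h and 5.29 after 6 h. The 1 h library was the lowest and the 6 h library the highest, with ratios to the control of 0.585 (0.421 to 0.814) and 2.97 (2.34 to 3.77). From 1 h to 6 h the ratio was 5.07 (3.81 to 6.75), the largest ratio of the 6 expressed genes between the washout times in the upward direction. Btc was expressed at a low level, and its 6 h difference of 1.18 on the log2(FPKM + 1) scale became 0.60 with a pseudocount of 5, below the limit.

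Tgfa, which encodes TGF-alpha, and Epgn, which encodes epigen, stayed at the limit of detection. Tgfa was at 0.0291 FPKM in the control and listed at 0 in both washout libraries, where 3 fragments would be worth 0.0320 and 0.0322 FPKM. Epgn was at 0.0521 FPKM (control), 0.0886 (1 h) and 0.117 (6 h), or about 2.16, 3.23 and 4.25 fragments, with overlapping bounds. No difference of either gene was detectable at this depth.

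Summed over the 6 ligands, the level was 64.3 FPKM in control cells, then 143 (1 h) and 171 (6 h). Hbegf made up 40.4%, 48.9% and 45.6% of these sums, Ereg 33.9%, 28.9% and 28.6%, and Areg 22.8%, 21.3% and 22.6%. Hbegf stood at 1.19 times the level of Ereg in the control (1.10 to 1.29), and at 1.69 times (1.60 to 1.79) and 1.59 times (1.51 to 1.68) at 1 h and 6 h, so its share was larger in both washout libraries while that of Areg was close to the control's. In bulk RNA of this kind, fewer cells of a type and less RNA per cell cannot be told apart.

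Egfr, the receptor gene, was higher mainly in the later library. Control cells had 5.88 FPKM, against 7.39 after 1 h and 12.8 after 6 h. The 1 h library was 1.26-fold the control (1.13 to 1.40) and the 6 h library 2.18-fold (1.98 to 2.40), with bounds apart at both times. Egfr was just inside the 2-fold limit at 6 h, with a log2(FPKM + 1) difference of 1.01, and at 0.71 it was outside with a pseudocount of 5.

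Errfi1 encodes MIG6, a cytoplasmic protein that binds the EGFR kinase domain, blocks it and promotes removal of the receptor. Its level was 26.5 FPKM in the control, then 163 at 1 h and 31.4 at 6 h. The 1 h library was far above the other libraries, 6.14-fold the control (5.77 to 6.54), and Errfi1 was then the highest of the 8 genes. At 6 h it was close to the control at 1.19-fold (1.09 to 1.29), with a 6 h to 1 h ratio of 0.194 (0.182 to 0.206). Of the excess over the control seen at 1 h, 3.66% was left at 6 h in Errfi1, while the 6 h excess was 153% of that at 1 h in Areg, 119% in Hbegf, 140% in Ereg and 462% in Egfr.

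Counted together, 3 of the 6 expressed members (Areg, Hbegf, Errfi1) reached 2-fold above the control at 1 h, beside 1.31% of all 10464 expressed genes, and 0 reached 2-fold below it, beside 0.831%. At 6 h, 5 were this far above it (Areg, Hbegf, Ereg, Btc, Egfr), beside 1.08% of all genes, and 0 this far below, beside 0.631%. With a pseudocount of 5 the 1 h count was 2, without Areg, and the 6 h count 3. With the midpoint of the bounds in place of FPKM, an alternative chosen after seeing the data, the 1 h count was 2 as well, with Areg just under the limit. Between the washout times Btc was at least 2-fold higher at 6 h, beside 1.47% of all genes, and Errfi1 at least 2-fold lower, beside 1.70%. The median log2(FPKM + 1) difference of the 6 genes was 0.95 at 1 h and 1.16 at 6 h, where that of all expressed genes was -0.02 and -0.06. Both comparisons use the same control library, and Areg and Hbegf were chosen for these differences, so nothing is read from the counts. The deposited bounds did not overlap for 5 members higher at 1 h, with 14.9% of all genes, for 1 lower (Btc), with 20.1%, and for 6 higher at 6 h, with 11.2% (0 lower, 19.2%). Between the washout times the bounds were apart for 5 members higher at 6 h, with 19.7%, and for Errfi1, lower at 6 h, with 23.0%.

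**Figure D2:**
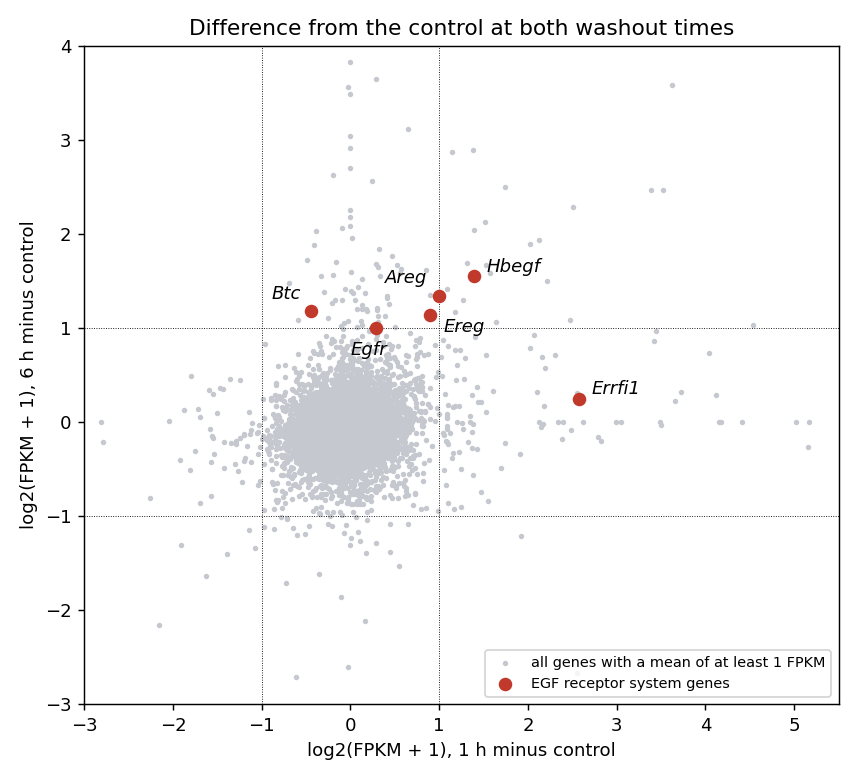
Difference from the control on the log2(FPKM + 1) scale at 1 h (horizontal) and 6 h (vertical) for all expressed genes (grey) and the 6 expressed EGF receptor system genes (red); dotted lines mark 2-fold, and 63 genes lie beyond the axes. Areg, Hbegf and Ereg lie together at upper right, Btc and Egfr above the middle, and Errfi1 far to the right near the height of the control.

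Epgn, Ereg, Areg and Btc lie side by side in a stretch of 375 kb on chromosome 5, from 91456543 to 91832020 in mm9, the build of the files. Ereg spans 91503643 to 91522675, Areg 91568641 to 91577458 and Btc 91786287 to 91832020. Hbegf is on chromosome 18, Egfr on chromosome 11 at 16652206 to 16813910, Errfi1 on chromosome 4 at 150229200 to 150242989 and Tgfa on chromosome 6. Inside the stretch the neighbours Ereg and Areg had like values, whereas Epgn on one side was almost silent and Btc on the other was lower at 1 h. The only other gene listed there, Gm19619, was at most at 0.0497 FPKM. Just outside, Mthfd2l, a folate enzyme gene, had 7.92, 8.48 and 7.68 FPKM (control, 1 h, 6 h), and Parm1 6.25, 6.57 and 5.28 FPKM. Of the chemokine genes farther out, Cxcl1 had 24.8, 53.8 and 21.3 FPKM and Cxcl5 76.0, 54.7 and 34.7 FPKM. Of the 5 expressed genes around the ligands, only the weakly expressed chemokine gene Ppbp, at 1.29, 1.52 and 2.01 FPKM, had the order of libraries seen for Areg and Ereg.

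**Figure D3:**
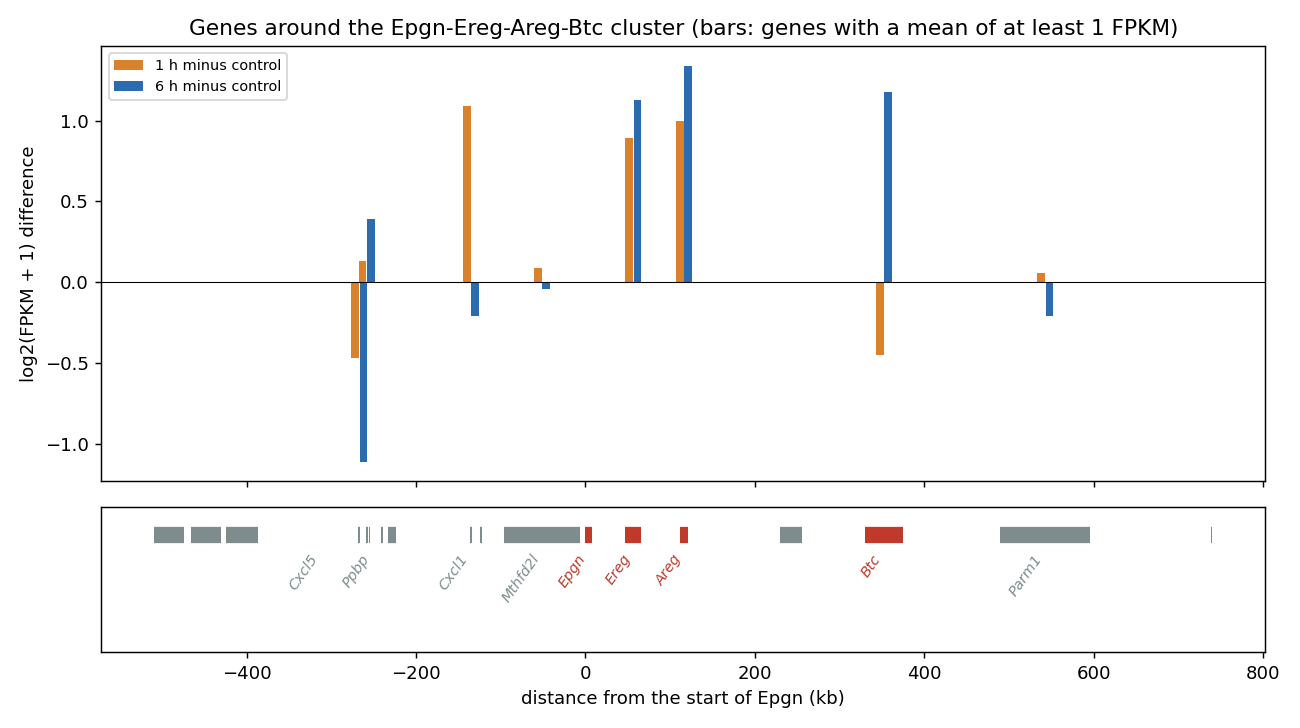
Genes within 500 kb of the chromosome 5 ligand cluster by distance from the start of Epgn (horizontal, kb), with the log2(FPKM + 1) difference from the control at 1 h (orange) and 6 h (blue) for expressed genes; red marks the ligand genes. Ereg and Areg were higher at both times, Btc only at 6 h, and Mthfd2l and Parm1 lay near 0.

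The genes closest to a member in their differences from the control at both times were found by Euclidean distance on the log2(FPKM + 1) scale, over 10316 genes above 0 in all 3 libraries. Nearest to Areg were Spry4, an inhibitor of ERK signalling (distance 0.11), Serpinb2, the plasminogen activator inhibitor 2 gene (0.11), its neighbour Ereg (0.24) and Zfp703 (0.26). Nearest to Hbegf were Nppb, which encodes a natriuretic peptide (0.16), Zfp703 (0.28), Serpinb2 (0.34) and Areg (0.44). Nppb was weakly expressed, at 0.680, 3.16 and 4.43 FPKM (control, 1 h, 6 h). At this level the added 1 FPKM shrinks differences, and its FPKM ratios to the control were larger than those of Hbegf. Nearest to Errfi1 were Ier2, an immediate early gene (0.07), the kinase gene Sgk1 (0.34), Zfp36, which encodes an mRNA decay factor (0.45), and Klf2 (0.46). Ier2 stood at 32.6, 197 and 40.7 FPKM (control, 1 h, 6 h), and Spry4 at 6.13, 12.3 and 17.2 FPKM. These distances rest on 3 libraries and describe likeness of values only.

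Of the other receptors of the family, Erbb2, the partner without a ligand of its own, was the 1 expressed gene, at 17.4 FPKM (control), 13.2 (1 h) and 19.2 (6 h). Its 1 h to control ratio was 0.755 (0.696 to 0.819). Erbb3 was at most at 0.0920 FPKM and Erbb4 was listed at 0 throughout. Among the other ligands Nrg1, a neuregulin that binds ERBB3 and ERBB4, had 8.88, 11.0 and 5.16 FPKM, Egf at most 0.194 FPKM, and Nrg2, Nrg3 and Nrg4 were listed at 0. Nrg1 was thus lowest at 6 h, with a ratio to the control of 0.581 (0.471 to 0.716), where Areg, Hbegf, Ereg and Btc were highest.

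Of 11 genes tied to ligand release 0 differed 2-fold from the control at 1 h, and 1, Timp3, did so at 6 h. With the shares of all genes given above, few calls among so few genes say little. The deposited bounds were apart for 3 higher and 3 lower at 1 h, beside 14.9% and 20.1% of all genes. At 6 h they were apart for 4 higher and 3 lower, beside 11.2% and 19.2%. Timp3 encodes an inhibitor of ADAM17 and other metalloproteases, and had 42.9 FPKM (control), 78.1 (1 h) and 134 (6 h), the last 3.13-fold the control (2.99 to 3.27). Adam17, the main sheddase of Areg, Hbegf and Ereg, had 14.6, 14.6 and 12.2 FPKM, and Adam10, which sheds Btc, 26.5, 25.8 and 24.3 FPKM. The most abundant of this list was Adam9, at 131, 134 and 114 FPKM. Furin, a proprotein convertase gene, had 61.3, 43.8 and 73.8 FPKM. Adam12 was 1.52-fold the control at 1 h (1.40 to 1.64), Adam19 1.74-fold at 6 h (1.61 to 1.89), and Rhbdf2, whose product helps ADAM17 mature, stood at a ratio of 0.580 at 1 h (0.447 to 0.751).

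Downstream, 0 of 13 adaptor and RAS activation genes, 0 of 8 RAF, MEK and ERK kinase genes, 0 of 14 receptor turnover genes and 0 of 11 genes of the PI3K, PLC gamma and STAT branch differed 2-fold from the control, whichever time was taken. Beside 1.31% higher and 0.831% lower over all genes at 1 h, and 1.08% and 0.631% at 6 h, a count of 0 in lists of this size is near the background. Smaller differences with bounds apart were present. At 6 h 5 of the 8 kinase genes were lower and 0 higher, and 6 of the 14 turnover genes were higher and 1 lower. At 1 h these lists were even, with 2 kinase genes higher and 2 lower, and 3 turnover genes higher and 3 lower. The adaptor and RAS activation list was even at both times, with 2 higher and 2 lower at 1 h and 3 and 3 at 6 h. In the PI3K, PLC gamma and STAT list 5 were lower and 0 higher at each time. Of all genes 14.9% were higher and 20.1% lower with bounds apart at 1 h, and 11.2% and 19.2% at 6 h. The phosphatase gene Ptpn11 had 79.6, 67.0 and 75.4 FPKM, and the kinase gene Akt1 163, 136 and 140 FPKM. In the turnover list, Lrig1, which encodes a membrane protein that promotes loss of EGFR, was 1.77-fold (1.58 to 1.97) and 1.89-fold (1.70 to 2.11) the control at 1 h and 6 h. Cblb, a ubiquitin ligase gene, was 1.86-fold at 6 h (1.65 to 2.10), and Ptpn1, a phosphatase gene, 1.85-fold (1.74 to 1.97). These were among the largest differences of that list. Its most abundant gene, Sh3kbp1, had 48.3, 53.4 and 55.3 FPKM (control, 1 h, 6 h), and Hgs, lower in both washout libraries, 37.3, 29.3 and 33.4 FPKM.

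At 1 h, ERK feedback inhibitors and ERK-dependent immediate early genes held all pathway genes past the limit other than the 8 members. Of 8 expressed feedback inhibitors 3 reached 2-fold above the control at 1 h (Dusp5, Dusp6 and Spry2) and 3 at 6 h (Dusp5, Dusp6 and Spry4), with 0 lower. The phosphatase gene Dusp5 had 17.2, 78.4 and 69.0 FPKM, high in both washout libraries as Hbegf was, and Dusp6 had 12.5, 41.2 and 27.1 FPKM. Spry2 had 15.5, 72.6 and 25.7 FPKM, highest at 1 h as Errfi1 was. Of 10 immediate early genes 6 reached it at 1 h (Fos, Egr1, Egr3, Ier2, Ier3 and Phlda1) and 0 at 6 h. Fos had 0.475, 18.6 and 0.837 FPKM, so it counted as expressed only through the 1 h library, where it was high. Ier3 had 82.7, 189 and 141 FPKM, and Phlda1 162, 397 and 223 FPKM. The lists were chosen with earlier results known, so nothing is read from the counts. At 1 h, 9 of the 77 expressed pathway genes other than the 8 members reached 2-fold above the control, beside 1.31% of all genes. At 6 h, 4 did so, beside 1.08%, and 0 lay as far below at either time, beside 0.831% (1 h) and 0.631% (6 h). The same shares apply to the counts of the inhibitor and immediate early lists. Between the washout times 5 of the 77 (Spry2, Fos, Egr1, Egr3 and Ier2) were at least 2-fold lower at 6 h, beside 1.70%. As far higher at 6 h were 0, beside 1.47%. These counts are on the log2(FPKM + 1) scale. By FPKM ratio of 6 h to 1 h, Rhbdf2 was at 2.24 (1.74 to 2.88), Ptpn1 at 2.00 (1.87 to 2.13) and Nrg1 at 0.468 (0.380 to 0.576), without being counted. Spry4, at 2.00 times the control at 1 h (1.76 to 2.28), was not counted at that time either. Whether the feedback inhibitors, the immediate early genes and the ligands share a cause of their differences was not tested.

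**Figure D4:**
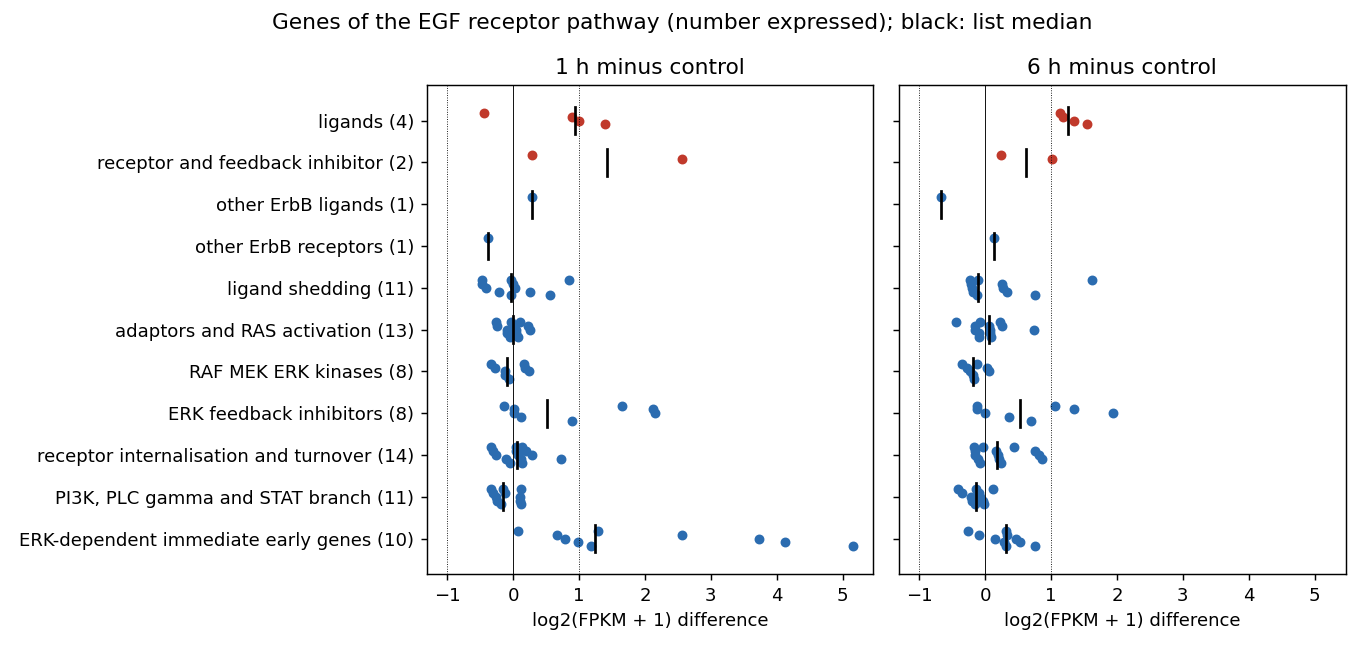
Difference from the control on the log2(FPKM + 1) scale (horizontal) at 1 h (left) and 6 h (right) for each expressed gene of the pathway lists (rows, with their number), with the list median as a black line; red marks the ligand, receptor and inhibitor genes described in detail. At 1 h the ERK feedback inhibitors and immediate early genes spread to the right (medians 0.51 and 1.23), and at 6 h the 4 expressed ligands all lie past 2-fold while the immediate early genes have a median of 0.31.

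Estimated depth was 20600000 to 23600000 fragments per library. Of 8 myoblast markers, which summed to 152, 200 and 223 FPKM (control, 1 h, 6 h), 4 were expressed: Des, Itga7, Cdh15 and Myf5, at 8.51 to 87.0 FPKM. Cdh15 was 3.18-fold the control at 6 h (2.97 to 3.40) and Myf5 2.32-fold at 1 h (2.04 to 2.63). The defining factors Myod1 and Pax7 were at most at 0.295 and 0.0109 FPKM. Markers of differentiated muscle summed to 38.3, 38.6 and 32.9 FPKM, with 2 of 8 expressed. These were Acta1, at 33.7, 35.5 and 29.2 FPKM, and Mylpf, at 2.98, 2.26 and 2.96 FPKM. Since EGF receptor ligands are abundant in epithelia, epithelial markers were examined as well. Only 1 of 8, Krt14, was expressed, the summed level of the list was 22.1, 14.8 and 22.5 FPKM (control, 1 h, 6 h), and Epcam was listed at 0 throughout. Fibroblast and mural markers summed to 4.13, 4.24 and 8.45 FPKM, with 1 of 6 expressed (Cspg4) and Thy1 listed at 0. The endothelial and leukocyte lists had 0 expressed genes of 5 and 6, with sums of at most 0.0283 and 1.26 FPKM; Cdh5 and Ptprc were listed at 0. The part of the myoblast, fibroblast and mural markers in the members' values was not tested.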

How the data were processed

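Polyadenylated RNA was sequenced as barcoded Illumina libraries from cells in DMEM with 20% FBS, per the labels' protocols. The authors deposited FPKM values with lower and upper 95% bounds per gene; TopHat, Cufflinks, FastQC and mm9 are named in the submitters' processing notes, and their versions and settings, strand and annotation were not given in the sources used here. The control column of the series table is headed untreated, and the washout columns are headed cont with the time, where the meaning of cont is not given. The washout columns were matched to the libraries by that time and the control by its head. All columns equalled the library tables in all 23807 rows. FPKM depends on transcript length, on very abundant genes and on how fragments are shared between overlapping models. Deposited FPKM lay outside its own bounds for 19.8% to 21.4% of symbols above 1 FPKM, so only the width and the overlap of bounds were used.

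Rows of a symbol were summed. Differences are of log2(FPKM + 1), which understates those of weakly expressed genes. A gene averaging at least 1 FPKM counted as expressed, and the limit for a count was 2-fold. Folds are FPKM ratios, with intervals from the relative widths of both libraries' bounds, and none where a lower bound is 0. The functions were tested on simulated data whose bounds were centred on the values. Many deposited values lay outside their bounds, so that test does not cover the intervals as used here. Depth was read off the steps between low FPKM values of genes with 1 transcript over 1500 nt in GENCODE; 67.8% to 68.8% of them lay within 0.15 of a whole number of fragments, with the step chosen for that share, where evenly spread values give 30%. Whole fragments were not recovered, so no count test was run. Promoters were RefSeq windows of GRCm38.p6, and 6 of the 8 genes had an entry. Hras was matched as Hras1.

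The members, lists and limits were chosen with earlier results of these data known. Beyond the 8 genes, those named were pathway genes past 2-fold, the other receptors and ligands of the family, abundant list members and the 4 genes nearest in pattern to Areg, Hbegf and Errfi1. Adam17, Adam10, Adam12, Adam19, Rhbdf2, Lrig1, Cblb, markers and chromosome 5 neighbours were added after their values were seen. Alternatives were other pseudocounts, filters, scalings, row and status rules, a 1.5-fold limit and, added after seeing the data, the midpoint of the bounds. Python 3.11.15 with pandas 2.3.3 and numpy 2.4.6 was used.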

Additional observations from a re-analysis of the deposited data

Results flagged for a closer look

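Some expressed members and pathway genes lay on opposite sides of the control at 1 h and at 6 h, with both fold intervals leaving out 1. None of these differences between times was tested. Btc had log2(FPKM + 1) differences of -0.45 at 1 h and 1.18 at 6 h. Nrg1 had 0.28 and -0.68. Erbb2 had -0.38 and 0.13. Egr1, an immediate early gene, had 5.16 and -0.27. Lower at 1 h and higher at 6 h were Rhbdf2 (-0.47 and 0.26), Furin (-0.47 and 0.27), Spred1 (-0.14 and 0.36), Socs5 (-0.30 and 0.44) and Ptpn1 (-0.11 and 0.86). Higher at 1 h and lower at 6 h were Araf (0.24 and -0.17), Dusp4 (0.12 and -0.12) and Usp8 (0.12 and -0.15).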

How the results depend on the processing

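No paired analysis was possible because each group has 1 library, and for the same reason no library could be left out. The log2(FPKM + 1) differences of the 6 expressed genes kept their sign under each alternative run. They ranged from 0.85 to 1.05 for Areg and 2.41 to 2.61 for Errfi1 at 1 h, and from 0.60 to 1.52 for Btc and 0.71 to 1.11 for Egfr at 6 h. Only the rescalings and the midpoint of the bounds could have changed a sign. A pseudocount cannot, and the other runs left the values of these genes as they were. Of the 132 recomputed counts 120 stayed within 1.5 times the main value. Many of these counts were 0 in both runs, so this share says little about stability. With a pseudocount of 5, 3 members were 2-fold above the control at 6 h, 0 were 2-fold higher at 6 h than at 1 h, and 2 other pathway genes were 2-fold above the control at 6 h. A mean of at least 5 FPKM removed Btc and left 0 members 2-fold higher at 6 h than at 1 h. Of the other pathway genes 1 was 2-fold higher at 6 h than at 1 h with a pseudocount of 0.1, which was Rhbdf2. After rescaling by the median ratio the count was also 1, but the gene was Ptpn1. At a 1.5-fold limit, which admits more genes by construction, 2 members were higher at 6 h than at 1 h, and of the other pathway genes 15 were above the control at 1 h, 11 above and 1 below it at 6 h, and 6 higher and 9 lower at 6 h than at 1 h. Depth limits Tgfa and Epgn, whose values rest on at most 4.25 fragments.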
